A study of Mus musculus with 3 samples.

Results

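The 35 genes described here are cell cycle genes: 12 are mainly expressed in S phase, when DNA is copied, and 23 in G2 phase and mitosis (G2/M). They were taken from the gene lists of 3 droplet single-cell RNA libraries by symbol, and all 35 were found among the 27998 genes listed. The S genes were Ccne1, Ccne2, Rrm1, Rrm2, Pcna, Mcm2, Mcm3, Mcm4, Mcm5, Mcm6, Mcm7 and Tyms. The G2/M genes were Mki67, Top2a, Birc5, Ube2c, Cenpf, Cenpe, Cenpa, Cdk1, Ccnb1, Ccnb2, Ccna2, Bub1, Bub1b, Aurka, Aurkb, Plk1, Tpx2, Kif11, Kif23, Nusap1, Prc1, Cdc20 and Hmmr. The libraries came from bone marrow of female CB6F1 mice, the cross of the BALB/c and C57BL/6 strains, with 1 library for each of 3 groups. WT mice were untreated. BMT (bone marrow transplantation) mice received 2 irradiation doses of 4.0 Gy and, 4 hours later, marrow cells of CD45.1-positive B6.SJL mice. Mice of the aGVHD (acute graft-versus-host disease) group were treated like the BMT mice and were also given spleen cells from female C57BL/6 mice. Niche cells were enriched by sorting away cells positive for CD45, lineage markers or CD71, which marks dividing erythroid precursors, and dead cells. Blood cells that remained in the libraries had therefore passed a sort meant to remove them. The sources used here do not state ages, mice per library or days after transplantation.

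Cells prepare for division in G1 under cyclin D and cyclin E kinases, which release the E2F factors and switch on the S genes. The MCM proteins form the ring-shaped helicase that opens DNA, Pcna is the clamp that holds the polymerase, and Rrm1, Rrm2 and Tyms make the DNA building blocks. In G2 and mitosis, Cdk1 with cyclins A and B drives entry, the Aurora and Polo kinases and kinesins build the spindle, and Ube2c and Cdc20 act with the anaphase-promoting complex to end mitosis. In adult marrow, erythroid and B cell precursors divide rapidly, mature neutrophils have left the cycle, and most stromal and endothelial cells rest.

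Promoters of such genes are known for 3 sequence elements: the CHR (cell cycle genes homology region), the CCAAT box bound by NF-Y, and sites of E2F factors. RefSeq promoters (GRCm38.p6, 250 bases before to 50 after the start) were at hand for 30 of the 35 members. The CHR core TTTGAA, on either strand, was in 15 of 20 G2/M promoters and 1 of 10 S promoters, and in 17.9% of all 32851 promoters of that length. The CCAAT letters were in 18 of 20 and 8 of 10, against 37.4% of all promoters. The E2F-like letters TTTNNCGC were in 1 of 20 and 5 of 10, against 5.17% of all. Both strands were searched and overlapping matches were counted for each motif. A match describes the letters only. The 250 bases before the start of 4 members are shown because these genes carry the results: Ube2c had the largest fold between libraries among blood cells, Cdk1 is the mitotic kinase, Mcm6 was among the 2 members with the smallest folds, and Pcna supplied the largest share of S counts in niche cells. Capitals mark the CHR (TTTGAA or its reverse TTCAAA), the CCAAT box (CCAAT or its reverse ATTGG) and the E2F-like letters on either strand.
Ube2c (chr2:164769679-164769928, plus strand): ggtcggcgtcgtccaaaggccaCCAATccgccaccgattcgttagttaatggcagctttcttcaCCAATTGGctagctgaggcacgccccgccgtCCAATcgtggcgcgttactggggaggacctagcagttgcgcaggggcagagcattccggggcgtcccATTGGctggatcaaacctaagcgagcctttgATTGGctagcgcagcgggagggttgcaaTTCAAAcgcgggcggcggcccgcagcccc
Cdk1 (chr10:69352913-69353162, minus strand): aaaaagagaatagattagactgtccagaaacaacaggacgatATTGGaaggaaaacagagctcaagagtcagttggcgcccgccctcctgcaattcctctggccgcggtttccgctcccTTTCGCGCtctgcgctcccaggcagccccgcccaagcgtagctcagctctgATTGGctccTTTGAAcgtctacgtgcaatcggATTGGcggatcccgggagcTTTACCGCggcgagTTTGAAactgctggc
Mcm6 (chr1:128359706-128359955, minus strand): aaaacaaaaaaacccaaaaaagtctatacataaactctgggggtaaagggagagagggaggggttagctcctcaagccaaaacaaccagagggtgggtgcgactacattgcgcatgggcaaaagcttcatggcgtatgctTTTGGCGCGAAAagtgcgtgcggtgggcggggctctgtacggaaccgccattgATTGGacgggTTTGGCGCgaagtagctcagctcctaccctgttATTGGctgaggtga
Pcna (chr2:132253181-132253430, minus strand): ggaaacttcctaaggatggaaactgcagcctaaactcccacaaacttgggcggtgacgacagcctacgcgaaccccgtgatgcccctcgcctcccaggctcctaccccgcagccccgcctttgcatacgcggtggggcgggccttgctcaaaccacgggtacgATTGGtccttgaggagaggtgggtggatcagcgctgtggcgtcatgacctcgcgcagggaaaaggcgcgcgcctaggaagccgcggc
Ube2c held a CHR and several CCAAT boxes. Cdk1 held all 3 elements, Mcm6 E2F-like letters and CCAAT boxes but no CHR, and Pcna a CCAAT box alone.

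The values are counts of unique molecular identifiers (UMIs), each standing for 1 captured RNA molecule. Barcodes were kept as cells if they had 1000 or more UMIs from 500 or more genes and mitochondrial UMIs stayed below 10%. After removal of likely doublets, this left 6722 WT, 3516 BMT and 5320 aGVHD cells. Median depth was 7128, 6743.5 and 6802.5 UMIs per cell. Pairs of libraries shared 6 to 11 cell barcodes. Each cell was placed by its markers in the niche or the blood (haematopoietic) lineage, then in a class. All class names below are resemblances to marker lists. Niche cells numbered 5153, 2050 and 2228 in WT, BMT and aGVHD, blood cells 1091, 1337 and 2673, and cells of undecided lineage 478, 129 and 419. With 1 library per group, no test was possible, no difference has a replicate check, and all 95% intervals cover counting error only.

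Free RNA set a background that differed between libraries. Barcodes with at most 100 UMIs, taken as empty droplets, held all 35 members. Levels are given as CPM, in which the UMIs of a group are scaled to the usual common total. The G2/M genes of the empty droplets summed to 684 CPM in WT, 426 CPM in BMT and 1109 CPM in aGVHD, and their S genes to 366, 284 and 625 CPM. Haemoglobin made up 134761 CPM of the empty droplets in WT, 21058 CPM in BMT and 122801 CPM in aGVHD. To compare cells at the same depth, each was thinned to 1000 UMIs, and a cell with at least 2 UMIs of the 23 G2/M genes, or of the 12 S genes, was counted as G2/M-positive or S-positive. A droplet of 1000 UMIs made wholly of free RNA would be G2/M-positive in 15.01% of draws in WT, 6.86% in BMT and 30.4% in aGVHD. The same share for S genes was 5.27%, 3.34% and 13.03%.

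Niche cells carried few RNA molecules of cell cycle genes in all 3 libraries. G2/M-positive cells numbered 55 of 5153 in WT (1.07%, 95% Clopper-Pearson interval 0.805 to 1.39), then 16 of 2050 in BMT (0.780%, 0.447 to 1.26) and 22 of 2228 in aGVHD (0.987%, 0.620 to 1.49). The 3 intervals overlap, and all 3 shares were below those of the empty droplets. They were also at or below the 2%, 1.33% and 1.51% of mature neutrophils, which do not divide, at median depths of 6825, 8470.5 and 3769.5 UMIs for niche cells and 4586, 3725 and 5394 UMIs for the neutrophils. The 2% of WT neutrophils is 1 of 50 cells. The part of free RNA in the niche shares was not tested, and niche cells with UMIs of several G2/M members are described below. Dividing the BMT share by the WT share gave 0.731 (0.420 to 1.27), and dividing aGVHD by BMT gave 1.27 (0.666 to 2.40). Without thinning, the shares were 6.60%, 9.07% and 4.62%, and the ratios turned to 1.38 and 0.510. S-positive niche cells were 1.36% in the WT library (1.06 to 1.71), 2.29% in the BMT library (1.69 to 3.04) and 2.33% in the aGVHD library (1.75 to 3.05). The S ratio of BMT to WT was 1.69 (1.17 to 2.43), but 1.11 when 1 UMI sufficed, and that of aGVHD to BMT was 1.02 (0.689 to 1.503). Over the alternatives tried, the S ratio of BMT to WT ranged from 1.11 to 1.83 and stayed above 1. That of aGVHD to BMT ranged from 0.630 to 1.70, on both sides of 1. With 1 library per group, neither step is read as a rise. These S-positive shares were also below those of the empty droplets, while mature neutrophils had 2%, 0.166% and 0%. The summed S level was 151 CPM in WT, 161 CPM in BMT and 209 CPM in aGVHD, and here the ratio was 1.30 (1.23 to 1.36) for aGVHD over BMT.

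**Figure D1:**
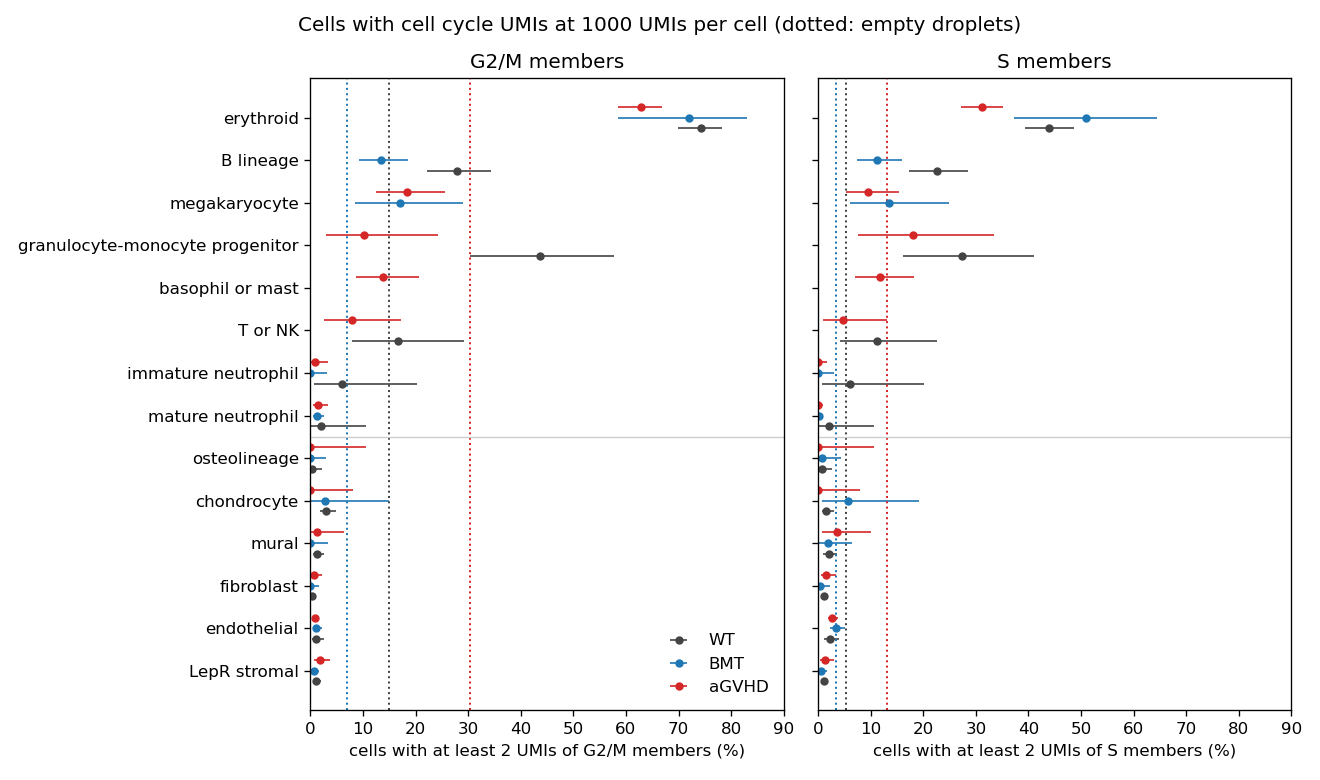
Share of cells with at least 2 UMIs of G2/M genes (left) and S genes (right) after thinning to 1000 UMIs, in percent, for each class with at least 30 cells in a library; points are shares, bars 95% Clopper-Pearson intervals, and dotted lines the share in draws from the empty droplets of the same library. Niche classes, below the grey line, sit at 0 to 3.05% on the left, while the erythroid class sits between 62.8% and 74.3%.

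Gene by gene, none of the 23 G2/M members was above the empty droplets of its library in the niche cells, summed over WT, BMT or aGVHD. Mki67, the proliferation marker, was at 7.48 CPM in WT, 4.48 CPM in BMT and 8.36 CPM in aGVHD niche cells, which was 0.0963, 0.103 and 0.0725 times its empty-droplet level. Ube2c was at 8.38, 5.13 and 10.01 CPM in the same order. Among S members, only Mcm4, at 1.08 times, and Pcna, at 1.07 times, stood above the empty droplets, both in BMT. Pcna, which also serves DNA repair, supplied 40.0% of the S UMIs of niche cells in WT, 38.6% in BMT and 36.3% in aGVHD. Its level was 60.4, 62.3 and 75.9 CPM. Rrm1, the large subunit of ribonucleotide reductase, came next in WT and BMT with 11.48% and 11.46%. A member counted as called between libraries with at least 20 UMIs in both together, at least a 2-fold difference, an interval excluding 1 and a level at least 2 times the empty droplets on its higher side. By this rule 0 of 35 members were called in niche cells for BMT over WT, where 3.05% of all genes were called higher and 2.43% lower. For aGVHD over BMT, 0 of 35 were called as well, against 2.34% of all genes higher and 3.54% lower. The median log2 ratio of the members was −0.10 for BMT over WT (all genes 0.10) and 0.44 for aGVHD over BMT (all genes 0.01).

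In endothelial-like cells, which line vessels, the WT library had 2.22% S-positive among 451 cells (1.07 to 4.04), the BMT library 3.48% among 747 (2.29 to 5.06) and the aGVHD library 2.68% among 1158 (1.83 to 3.78). These intervals overlap. The S ratio for aGVHD over BMT was 0.769 (0.460 to 1.28), and 0.363 without Pcna. Pcna in this class was at 82.1 CPM in WT, 106 CPM in BMT and 110 CPM in aGVHD, which was 1.01, 1.82 and 1.03 times the empty droplets. Rrm1, at 21.3, 32.2 and 20.3 CPM, and the helicase gene Mcm3, at 15.5, 25.2 and 16.1 CPM, had their highest level in BMT. G2/M-positive endothelial-like cells were 1.11%, 1.07% and 0.864%. Their summed G2/M level was 107 CPM in WT, 124 CPM in BMT and 71.2 CPM in aGVHD, a ratio of 0.572 (0.494 to 0.662) for aGVHD over BMT. Without thinning, the ratios of shares were 1.74 (BMT over WT) and 0.459 (aGVHD over BMT). The kinesin gene Kif23, needed to separate daughter cells, was the only G2/M member above the empty droplets in this class, at 1.962 times in BMT. None of the 25 members with enough UMIs was called for BMT over WT (2.63% of all genes higher, 2.37% lower), and none of 26 for aGVHD over BMT (1.77% and 2.31%). Without the empty-droplet requirement, 6 of the 26 were lower in aGVHD, beside 5.29% of all genes.

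The LepR stromal-like cells, the reticular cells that make Cxcl12 and Kitl, had 10 G2/M-positive cells among 949 in WT, 3 among 515 in BMT and 7 among 381 in aGVHD. These were 1.05% (0.506 to 1.93), 0.583% (0.120 to 1.69) and 1.84% (0.742 to 3.75). The ratio of 3.15 for aGVHD over BMT had an interval of 0.821 to 12.1 and so included 1. The summed G2/M level was 50.9, 61.1 and 99.6 CPM, a ratio of 1.63 (1.43 to 1.86) for aGVHD over BMT. Without the empty-droplet requirement, 6 of 28 members were higher and 1 lower in aGVHD than in BMT, beside 3.23% and 7.95% of all genes. None of 28 measured members was called in this class, for BMT over WT (3.03% of all genes higher, 1.02% lower) or for aGVHD over BMT (1.45% and 4.28%). Fibroblast-like cells had 5 of 1311, 0 of 235 and 2 of 333 G2/M-positive cells, and the 0 in BMT allows a share of up to 1.28%. The fibroblast-like G2/M level was 33.4, 28.4 and 82.6 CPM, a ratio of 2.90 (2.22 to 3.83) for aGVHD over BMT. In aGVHD the level came from 161 UMIs, and 3 cells with at least 5 different G2/M members had a median of 29. The interval over UMIs does not take such uneven cells into account. In that class 0 of 21 measured members were called for BMT over WT (1.46% of all genes higher, 1.01% lower) and 0 of 10 for aGVHD over BMT (1.71% and 2.67%). Osteolineage-like cells, the bone-forming line, had 1 of 263, 0 of 126 and 0 of 33, and the 0 values allow up to 2.38% and 9.09%. Of 16 measured members, 0 were called for BMT over WT in this class (0.567% of all genes higher, 1.05% lower). Niche cells of no single class had 0 of 26 called for BMT over WT (2.13% and 2.44%) and 0 of 18 for aGVHD over BMT (2.96% and 3.98%). Their summed G2/M level, though, was 72.0 CPM in WT, 50.2 CPM in BMT and 311 CPM in aGVHD. For aGVHD over BMT the ratio was 6.19 (4.96 to 7.77). Without the empty-droplet requirement 10 of 18 members were higher, beside 5.61% of all genes. The ratio of G2/M-positive shares was 0.8 (0.148 to 4.31), from 1.79% in BMT and 1.43% in aGVHD, and included 1. In aGVHD 2 of the 140 cells held UMIs of at least 5 different G2/M members, and the interval over UMIs does not allow for this. In mural-like cells, which wrap vessels, 6 of 498, 0 of 108 and 1 of 84 were G2/M-positive. The member called in a niche class was Rrm1 in mural-like cells, at 52.1 CPM in WT, 52.7 CPM in BMT and 18.3 CPM in aGVHD. It was 2.88-fold lower (1.45 to 6.34) in aGVHD than in BMT, the only call among 5 measured members, where 0.844% of all genes were higher and 2.17% lower. For BMT over WT, 0 of 17 measured members were called in mural-like cells (1.47% of all genes higher, 1.87% lower).

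Chondrocyte-like cells, the cartilage line, were the niche class with the most many-member cells in WT, a term for cells with UMIs of several G2/M members. In WT, 16 of 525 were G2/M-positive (3.05%, 1.75 to 4.90), and their unthinned share was 20.6% at a median of 15071 UMIs. A cell with UMIs of at least 5 different G2/M members unthinned is called a many-member cell here, a rule added after the data were seen. There were 34 such chondrocyte-like cells in WT (6.48%, 4.53 to 8.93), 1 of 35 in BMT and 0 of 44 in aGVHD, which allows up to 6.82% (here and elsewhere, 3 counts of the total). The 34 cells had a median of 28.5 G2/M UMIs. Their summed haemoglobin level was 290 CPM, against 3037 CPM in the other 491 cells, and blood-cell markers summed to 188 CPM against 349 CPM. The median haemoglobin count per 10000 UMIs was close, at 2.83 in the 34 cells and 2.76 in the other 491. The 34 cells carried a median of 10 different niche markers and 1 blood marker. Cenpa, the histone variant of centromeres, supplied 16.2% of their class's G2/M UMIs, and Cenpf, a kinetochore protein, was the only G2/M member above the empty droplets in WT, at 1.55 times. The 35 chondrocyte-like cells of BMT had 379 G2/M UMIs (441 CPM), with 12 of 23 G2/M members above the empty droplets and 3 (Cenpf, Prc1 and Hmmr) at least 2 times. Of these 35 BMT cells 1 was G2/M-positive, and the 34 that were not many-member cells had a median of 0 G2/M UMIs. The BMT sums are therefore not read as a trait of the class. With 35 and 44 cells in the treated libraries, the class was not compared between libraries.

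Over all niche cells, such many-member cells numbered 62 in WT, 23 in BMT and 19 in aGVHD. By class, the endothelial-like cells held 5, 9 and 3 of them, the LepR stromal-like cells 2, 7 and 10, and the mural-like cells of WT 5. These counts are not matched for depth. The LepR stromal-like class had 949, 515 and 381 cells, and its other cells had medians of 5720, 14844 and 12145 UMIs, so no order is read from 2, 7 and 10. In the 5 mural-like cells of WT, haemoglobin summed to 251315 CPM, against 13898 CPM in the other mural-like cells, and its part in their G2/M counts was not tested. The 62 WT cells had a median of 3.31 haemoglobin UMIs per 10000, against 4.15 in the other WT niche cells, and blood-cell markers at 490 CPM against 896 CPM. Summed haemoglobin went the other way, at 18360 CPM in the 62 cells and 6564 CPM in the others. The sum of the 62 includes the 5 mural-like cells above.

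Some regulators of the cycle were called between libraries in niche classes. When the cells were clustered, different endothelial-like clusters held most of this class: cluster 20 with 328 cells in WT, cluster 22 with 545 in BMT and cluster 30 with 1114 in aGVHD. Of the LepR stromal-like clusters, cluster 13 had 923 cells in WT, 10 in BMT and 0 in aGVHD, and cluster 32 had 12, 457 and 347. The differences below therefore also lie between clusters. In endothelial-like cells Cdkn1a, the p21 inhibitor induced by p53, was at 351 CPM in WT and 1392 CPM in BMT, 3.96-fold higher (3.65 to 4.30). Rb1, the retinoblastoma protein that holds E2F factors, was at 30.4 CPM in WT and 68.4 CPM in BMT, 2.25-fold higher (1.69 to 3.04). These were the 2 called of 14 measured inhibiting regulators, and 0 of 12 activating regulators were called (2.63% of all genes higher, 2.37% lower). In aGVHD over BMT, 2 of 14 activating and 2 of 15 inhibiting regulators were lower in this class, beside 2.31% of all genes, and 0 higher, beside 1.77%: Ccnd1 went from 307 to 120 CPM, 2.56-fold lower (2.31 to 2.85), and Ccnd2 from 219 to 106 CPM, 2.07-fold lower (1.84 to 2.33). The inhibitors Cdkn1c, or p57, and Wee1 were also lower, by 2.05-fold (1.82 to 2.31) and 2.26-fold (1.70 to 3.03). In LepR stromal-like cells Ccnd1 differed in the opposite direction, from 20.8 CPM in BMT to 145 CPM in aGVHD, 6.98-fold higher (5.85 to 8.36), the 1 called of 14 activating regulators (1.45% of all genes higher, 4.28% lower). No test of the difference between the classes was possible.

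In the LepR stromal-like class, Ccng1 and Psrc1 were called higher in BMT than in WT. Ccng1, a cyclin induced by p53, was at 24.8 CPM in WT and 109 CPM in BMT, 4.39-fold higher (3.66 to 5.29). Psrc1, a spindle protein gene also under p53, was at 0.710 CPM in WT, 28.8 CPM in BMT and 11.3 CPM in aGVHD, so that BMT exceeded WT 40.5-fold (15.6 to 150). Psrc1 was the only one of 25 measured other G2/M genes called in this class for BMT over WT, and 0 of 27 other S genes were called. Cdkn1c was at 252 CPM in WT, 114 CPM in BMT and 53.7 CPM in aGVHD, 2.20-fold lower (2.02 to 2.39) and then 2.13-fold lower (1.85 to 2.46). Ccng1 and Cdkn1c were the 2 called of 15 inhibiting regulators for BMT over WT (3.03% of all genes higher, 1.02% lower), and Cdkn1c the 1 of 15 for aGVHD over BMT (1.45% and 4.28%). Over all niche cells, 0 of 34 other S genes, 0 of 45 other G2/M genes and 0 of 18 activating regulators were called for BMT over WT, and the call among 16 inhibiting regulators was Gas1, a growth-arrest gene of fibroblasts. In this comparison 3.05% of all genes were higher and 2.43% lower, and nothing is read from 1 call in 16. Gas1 was at 684 CPM in WT and 220 CPM in BMT, 3.11-fold lower (3.02 to 3.20). The niche classes make up different shares of the libraries, and how far that moved the sum was not tested.

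Blood cells held most of the cell cycle RNA. G2/M-positive cells were 508 of 1091 in WT (46.6%, 43.6 to 49.6), 121 of 1337 in BMT (9.05%, 7.57 to 10.7) and 724 of 2673 in aGVHD (27.1%, 25.4 to 28.8). S-positive cells were 29.6%, 7.70% and 17.6%. WT was highest and BMT lowest for both gene groups. The BMT share was 0.194 times the WT share for G2/M (0.162 to 0.233) and 0.260 times for S (0.212 to 0.320). The aGVHD share was 2.99 times the BMT share for G2/M (2.50 to 3.59) and 2.28 times for S (1.86 to 2.80). The summed G2/M level was 3389 CPM in WT, 863 CPM in BMT and 1621 CPM in aGVHD, and the S level 1538, 613 and 878 CPM. The G2/M sum was 4.96 times the empty droplets of its library for WT, 2.03 times for BMT and 1.46 times for aGVHD, and the S sum 4.20, 2.16 and 1.40 times. The G2/M-positive share of aGVHD blood cells, 27.1%, lies below the 30.4% of draws from its empty droplets and above the 1.51% of its mature neutrophil-like cells. The part of free RNA in the 2.99-fold ratio was not tested.

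The blood cell classes differed between the libraries. Mature neutrophil-like cells were 4.58% of blood cells in WT, 45.0% in BMT and 14.9% in aGVHD, erythroid-like cells 40.2%, 4.26% and 20.2%, and B lineage-like cells 20.3%, 16.8% and 0.187%. When the share of each class in WT was given to all 3 libraries, the G2/M-positive share came to 46.6% in WT, 35.4% in BMT and 31.2% in aGVHD, and the S-positive share to 29.6%, 27.1% and 17.7%. In aGVHD that sum gives the B lineage-like class its WT weight although it had 5 cells there, none of them G2/M-positive, so no order between BMT and aGVHD is read from it. An alternative added after the data were seen used 4 classes with at least 30 cells in each library: erythroid-like, both neutrophil classes and no single class. The early progenitor class, with 34, 34 and 101 cells, also reached 30 but was left out by choice. Over the 4 classes, the G2/M-positive shares at WT weights were 59.4%, 50.6% and 48.3% in the order WT, BMT and aGVHD. The S-positive shares were then 36.2%, 37.1% and 25.7%. Without erythroid-like cells the G2/M-positive shares were 27.9%, 6.25% and 18.0%, and without both neutrophil classes 50.1%, 18.3% and 34.8%, each in the order WT, BMT and aGVHD.

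For BMT over WT, 33 of 35 members were called lower in blood cells and 0 higher, where 4.83% of all genes were lower. The median log2 ratio of the members was −1.69, against 0.10 for all genes. All 23 G2/M members were among them. Ube2c (chromosome 2, 164769898 to 164778822, plus strand), the ubiquitin enzyme of anaphase, was at 512 CPM in WT, 84.1 CPM in BMT and 292 CPM in aGVHD, 6.08-fold lower in BMT than in WT (5.68 to 6.52). Mki67 (chromosome 7, 135689784 to 135716361, minus strand) was at 500, 94.005 and 217 CPM in the same order, 5.32-fold lower (4.99 to 5.69). Birc5, the survivin gene of the chromosomal passenger complex, was at 377, 73.3 and 161 CPM, 5.15-fold lower (4.78 to 5.55). Hmmr, which binds the spindle, was 4.82-fold lower (4.15 to 5.62), and Nusap1 and Prc1, which bundle spindle microtubules, 4.09-fold (3.68 to 4.54) and 4.03-fold (3.58 to 4.55). WT was highest and BMT lowest for each of these genes.

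Mitotic kinases and their cyclins were lower by smaller folds. Cdk1 (chromosome 10, 69335146 to 69352938, minus strand) was at 117 CPM in WT, 32.0 CPM in BMT and 70.8 CPM in aGVHD, 3.65-fold lower in BMT than in WT (3.25 to 4.10). Its partners Ccnb2, Ccna2 and Ccnb1 were 3.81-fold (3.42 to 4.25), 3.76-fold (3.35 to 4.24) and 3.53-fold (3.03 to 4.12) lower. The Aurora kinase genes Aurkb and Aurka were 3.31-fold (2.80 to 3.93) and 3.22-fold (2.59 to 4.03) lower, and Plk1, the Polo kinase, 2.91-fold (2.30 to 3.72). The topoisomerase gene Top2a (chromosome 11, 98992943 to 99024189, minus strand) was at 342, 119 and 147 CPM, 2.87-fold lower (2.70 to 3.05). Cenpa, at 238, 101 and 115 CPM, had the smallest fold of the G2/M members, 2.36 (2.21 to 2.53).

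Among the S members, Rrm1, Tyms, Pcna and the 6 MCM genes were lower by 1.77-fold to 2.75-fold. Rrm2, the ribonucleotide reductase subunit tied to S phase, had the largest S fold, at 216 CPM in WT, 39.2 CPM in BMT and 89.7 CPM in aGVHD, 5.52-fold lower in BMT than in WT (4.99 to 6.12). The cyclin E genes Ccne1 and Ccne2 were 4.32-fold (3.62 to 5.18) and 3.099-fold (2.56 to 3.77) lower. Pcna (chromosome 2, 132249162 to 132253314, minus strand) was at 233, 94.2 and 135 CPM, 2.48-fold lower (2.31 to 2.66). The 2 members not called were Mcm3, at 118 CPM in WT and 61.6 CPM in BMT, 1.91-fold lower (1.75 to 2.09), and Mcm6, at 166 CPM and 93.7 CPM, 1.77-fold lower (1.64 to 1.90). Haemoglobin was 16.8% of the UMIs of WT blood cells, 0.954% in BMT and 12.9% in aGVHD. With haemoglobin UMIs left out of the totals, 35 of 35 members were called lower, against 6.39% of all genes, and the median log2 ratio of the members was −1.94.

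For aGVHD over BMT, all 35 fitted ratios in blood cells were above 1, yet 0 members were called, where 0.577% of all genes were called higher and 4.04% lower. The median log2 ratio was 0.73 for the members and −0.22 for all genes. In aGVHD only Cenpf, at 2.76 times, and Kif23, at 2.17 times, were at least 2 times the empty droplets of their library, as the rule asks. Without that requirement 8 members were called higher (Rrm2, Mki67, Birc5, Ube2c, Cdk1, Ccnb1, Aurka and Plk1), beside 4.23% of all genes. Ube2c exceeded its BMT level 3.47-fold in aGVHD (3.24 to 3.72), Mki67 2.31-fold (2.16 to 2.47), Rrm2 2.29-fold (2.07 to 2.54) and Cdk1 2.21-fold (1.98 to 2.48). At the other end, Cenpa was 1.14-fold (1.06 to 1.22) and Mcm6 1.15-fold (1.07 to 1.23) higher, and the interval of Bub1, 0.914 to 1.43, included 1. The level of free RNA was highest in aGVHD, and its part in these ratios was not tested. Both comparisons share the BMT library.

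**Figure D2:**
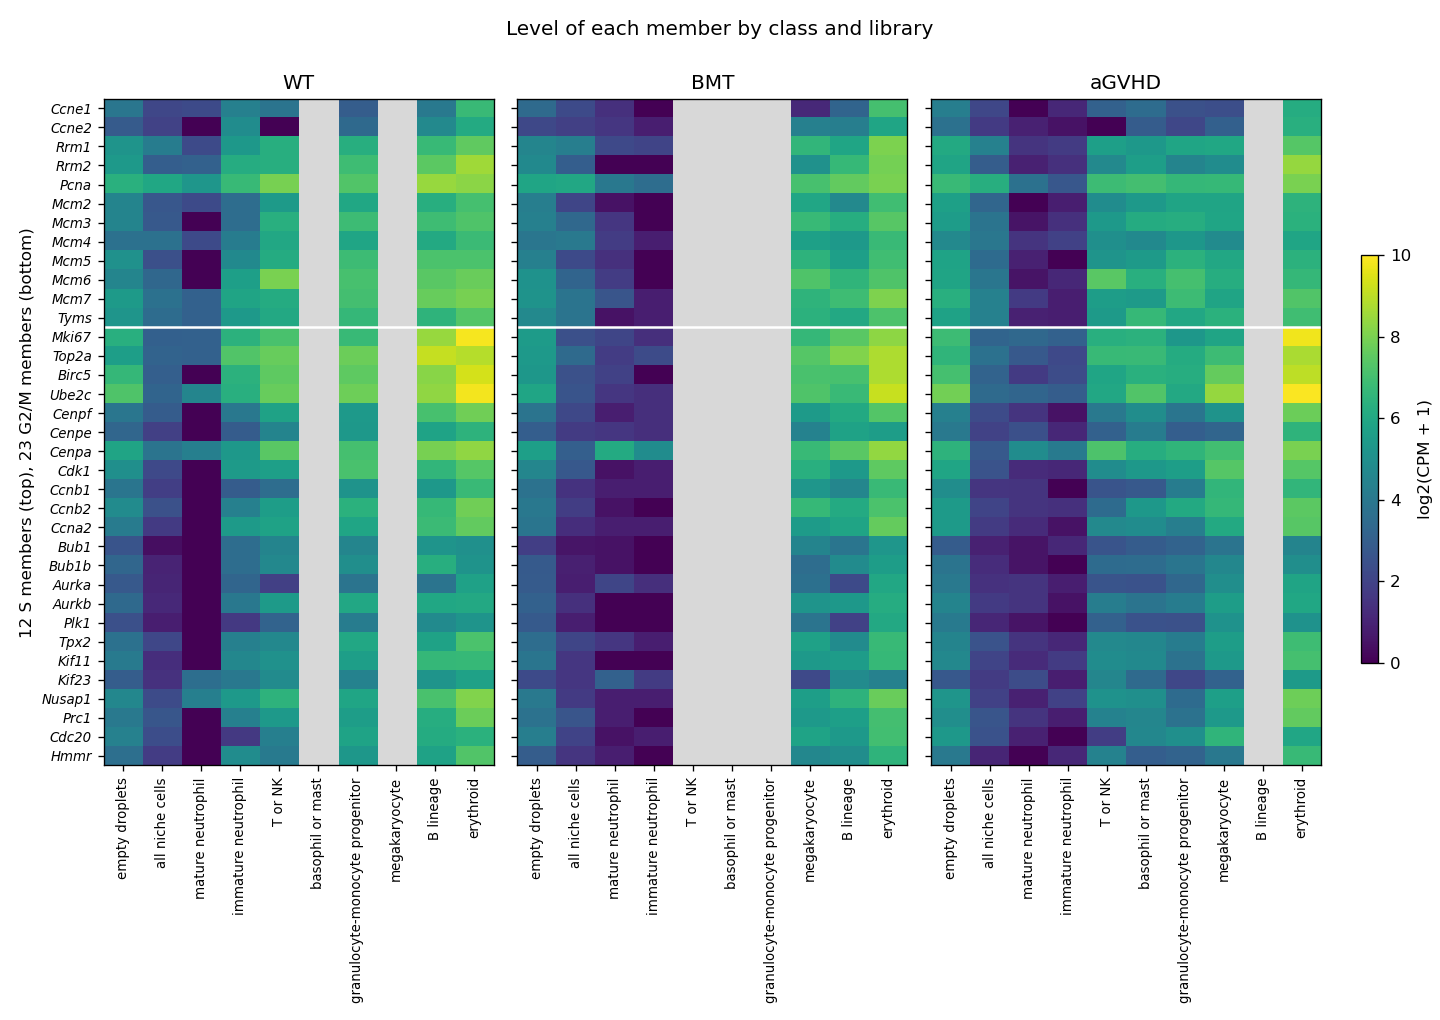
Level of each of the 35 members (rows, S members above the white line) in the empty droplets, all niche cells and 8 blood classes (columns) of each library, as log2(CPM + 1); grey marks classes under 30 cells. The erythroid column is bright in all 3 libraries, and the niche and mature neutrophil columns are darker than the empty droplets for nearly every member.

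Erythroid-like cells, the red cell line, had the highest level of most members among classes of at least 30 cells, the early progenitor class left out. That held for 29 of 35 members in WT, 33 in BMT and 30 in aGVHD. The early progenitor class, which was not ranked, had 34, 34 and 101 cells in the same order. In WT the B lineage-like class was higher for Top2a, Bub1, Bub1b, Pcna and Mcm5, and T or NK-like cells for Mcm6. G2/M-positive erythroid-like cells were 326 of 439 in WT (74.3%, 69.9 to 78.3), 41 of 57 in BMT (71.9%, 58.5 to 83.0) and 339 of 540 in aGVHD (62.8%, 58.5 to 66.9), and S-positive ones 44.0%, 50.9% and 31.1%. The G2/M ratio for BMT over WT was 0.969 (0.816 to 1.15). Between aGVHD and BMT no order of G2/M can be read, because the share was lower and the level higher in aGVHD (5017 against 3998 CPM, with 5507 CPM in WT). The erythroid-like cells of WT and aGVHD had 36.7% and 54.1% of their UMIs in haemoglobin, those of BMT 8.99%.

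Within this class the cells with the most cell cycle RNA had the least haemoglobin. In WT, 344 cells with at least 5 different G2/M members had a median of 3917 haemoglobin UMIs per 10000, and the other 95 cells 7995. In aGVHD, 330 such cells had 5125 and the other 210 cells 7822. In BMT, 44 such cells had 11.8 and the other 13 had 1384. Haemoglobin takes UMIs away from the other genes of a cell, so both scales are given.

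On the CPM scale over all UMIs, 2 of 35 members were lower in BMT than in WT erythroid-like cells (3.08% of all genes lower, 13.7% higher). Mki67 was at 922 CPM in WT, 311 CPM in BMT and 873 CPM in aGVHD, 2.97-fold lower in BMT than in WT (2.62 to 3.37), with aGVHD 2.81-fold above BMT (2.48 to 3.19). Kif23 was at 51.6, 20.01 and 42.3 CPM, 2.58-fold lower (1.59 to 4.48) and 2.11-fold higher (1.29 to 3.69). Mcm3, 2.05-fold (1.69 to 2.47), and Cdc20, the activator of anaphase, 2.13-fold (1.70 to 2.66), were lower in aGVHD than in BMT, where 3.76% of all genes were higher and 20.5% lower. The median of all genes moved by 0.59 for BMT over WT and by −1.05 for aGVHD over BMT on the log2 scale.

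With haemoglobin UMIs left out of the CPM, those medians were 0.08 and −0.07, and more members differed. The summed G2/M level was 8700 in WT, 4393 in BMT and 10921 in aGVHD on that scale. For BMT over WT, 11 of 35 members were lower and 0 higher (7.08% of all genes lower). They were Rrm2, Mcm6, Mki67, Birc5, Ube2c, Cenpf, Cenpe, Ccnb2, Kif23, Prc1 and Hmmr. For aGVHD over BMT, 14 of 35 were higher and 0 lower (13.6% of all genes higher), so Mcm3 and Cdc20 were no longer called. The 14 were Ccne2, Rrm2, Mki67, Birc5, Ube2c, Cenpf, Cenpe, Ccnb2, Tpx2, Kif11, Kif23, Nusap1, Prc1 and Hmmr. Mki67 and Kif23 were called in the same direction on both scales. The BMT class had 57 cells.

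B lineage-like cells, which had the precursor genes Vpreb1 and Vpreb3 among their leading genes, were compared between WT and BMT, since aGVHD had 5. G2/M-positive cells were 62 of 222 in WT (27.9%, 22.1 to 34.3) and 30 of 224 in BMT (13.4%, 9.22 to 18.6), a ratio of 0.480 (0.323 to 0.711). S-positive cells were 22.5% and 11.2%, a ratio of 0.496 (0.318 to 0.772). The summed G2/M level was 3043 CPM in WT and 1570 CPM in BMT, and the S level 1545 and 844 CPM. Haemoglobin was at 9115 CPM in WT and 11829 CPM in BMT B lineage-like cells.

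Of the 35 members, 11 were called lower in BMT than in WT B lineage-like cells and 0 higher, beside 3.36% of all genes lower and 6.56% higher. The median log2 ratio was −0.88, against 0.17 for all genes. At a 1.5-fold boundary 28 were lower, beside 6.23% of all genes. Top2a was at 558 CPM in WT and 275 CPM in BMT, 2.03-fold lower (1.77 to 2.33). Ube2c was at 327 and 109 CPM, 3-fold lower (2.44 to 3.71). With haemoglobin UMIs left out, 9 were lower, beside 2.76% of all genes, and Ube2c and Aurka were not called. The spindle checkpoint kinase genes Bub1 and Bub1b were 2.55-fold (1.40 to 4.90) and 2.83-fold (1.86 to 4.43) lower, and Cdk1 2.26-fold (1.60 to 3.25). Plk1 was at 26.7 CPM in WT, from 36 UMIs, and 2.79 CPM in BMT, from 3 UMIs, a ratio of 9.55 with an interval of 3.02 to 48.5. Mcm2 and Mcm5 were the S members called, 3.07-fold (1.99 to 4.87) and 2.97-fold (2.18 to 4.11) lower. The centromere kinesin gene Cenpe did not share in this: it was at 54.9 CPM in WT and 53.1 CPM in BMT, a ratio of 1.03 (0.722 to 1.49). Of 17 measured activating regulators 4 were called lower (Cdk4, Cdc25a, Chek1 and Skp2), and Cdk4, the kinase of cyclin D, was 2.08-fold lower (1.64 to 2.65). Of 12 inhibiting regulators 1 was called, Cdkn1b, the p27 inhibitor, 2.59-fold higher (2.15 to 3.13), at 126 CPM in WT and 326 CPM in BMT.

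**Figure D3:**
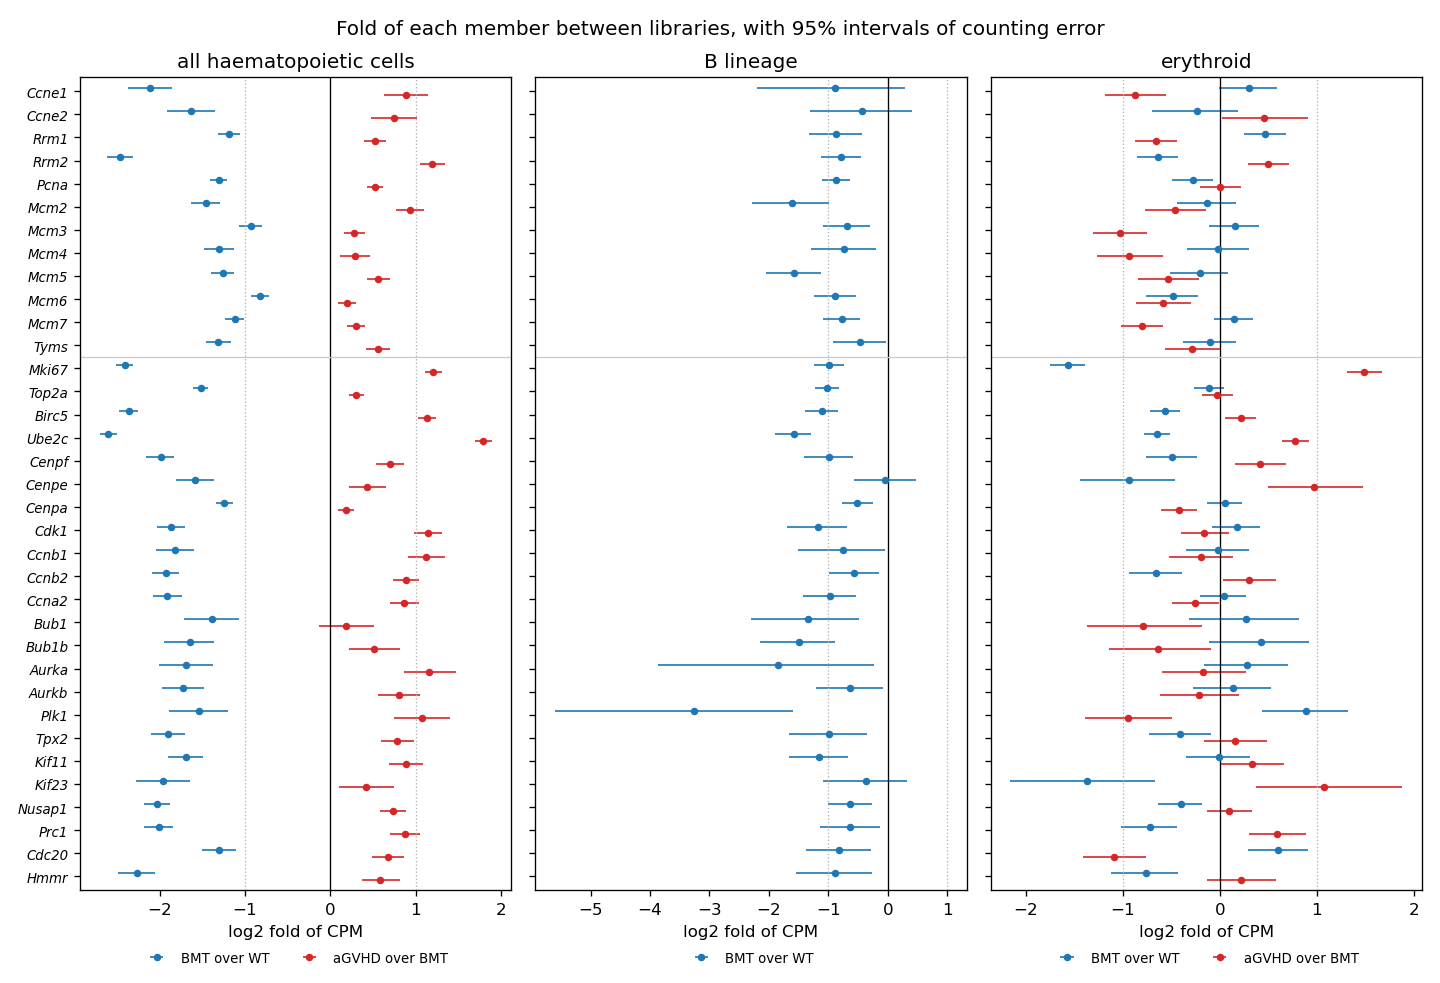
Log2 ratio of the CPM of each member between libraries, with 95% intervals of counting error, in all blood cells (left), B lineage-like cells (middle) and erythroid-like cells (right); blue is BMT over WT, red aGVHD over BMT, and dotted lines mark 2-fold. In blood cells all blue points lie to the left of 0 and all red points to the right, in B lineage-like cells all points lie to the left, and in erythroid-like cells both colours lie on both sides.

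Megakaryocyte-like cells, the platelet line, become polyploid by cycles without division. G2/M-positive cells were 10 of 59 in BMT (16.9%, 8.44 to 29.0) and 27 of 147 in aGVHD (18.4%, 12.5 to 25.6), a ratio of 1.08 (0.560 to 2.10). The BMT share was above the 6.86% of its empty droplets, while the aGVHD share was below the 30.4% of its own. Of 33 measured members, 3 were called higher in aGVHD than in BMT (1.42% of all genes) and 3 lower (1.97%). The mitotic entry genes Cdk1, from 79.2 to 165 CPM, and Ccnb1, from 37.2 to 95.8 CPM, were 2.08-fold (1.58 to 2.76) and 2.57-fold (1.74 to 3.92) higher, and Plk1 2.49-fold (1.29 to 5.29). Lower were Ccne2, by 2.62-fold (1.16 to 6.08), Cenpe, by 2.39-fold (1.11 to 5.24), and Mcm6, by 2.03-fold (1.57 to 2.63). Ube2c, at 150 and 344 CPM, was 2.29-fold higher (1.89 to 2.81), but at 1.49 times the empty droplets of aGVHD it was not called. In aGVHD this class had the highest level of Cdk1, Ccnb1 and Cdc20 of the 14 ranked classes with at least 30 cells, the early progenitor class left out.

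Other dividing blood classes were small. Granulocyte-monocyte progenitor-like cells were G2/M-positive in 24 of 55 cells in WT (43.6%, 30.3 to 57.7), 2 of 13 in BMT and 4 of 39 in aGVHD (10.3%, 2.87 to 24.2). Top2a in this class was at 212 CPM in WT and 69.8 CPM in aGVHD, and Rrm2 at 119 and 21.7 CPM. T or NK-like cells were G2/M-positive in 9 of 54 cells in WT (16.7%), 2 of 22 cells in BMT (9.09%) and 5 of 64 cells in aGVHD (7.81%). Basophil or mast-like cells of aGVHD were G2/M-positive in 20 of 144 cells (13.9%, 8.70 to 20.6), and the other libraries had 19 and 9 cells of this class. For aGVHD, the shares of these 3 classes were below the 30.4% of its empty droplets.

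Mature neutrophil-like cells had little cell cycle RNA apart from Cenpa. Mature neutrophil-like cells were G2/M-positive in 1 of 50 in WT, 8 of 601 in BMT (1.33%, 0.576 to 2.61) and 6 of 397 in aGVHD (1.51%, 0.557 to 3.26). S-positive cells were 1, 1 and 0, and 0 of 397 allows up to 0.756%. In BMT, Cenpa supplied 170 of 250 G2/M UMIs of this class, or 68.0%, and 33.9% in aGVHD. It was at 18.7 CPM in WT, from 5 UMIs, 68.5 CPM in BMT and 27.9 CPM in aGVHD. The BMT value was 1.39 times the empty droplets, and Kif23, at 2.04 times, was the other G2/M member above them. Immature neutrophil-like cells were G2/M-positive in 2 of 33, 0 of 118 and 2 of 220, and the 0 in BMT allows up to 2.54%. The 33 immature cells of WT had 356 G2/M UMIs (768 CPM, against 46.5 CPM in BMT and 54.0 CPM in aGVHD), with 15 of 23 G2/M members above the empty droplets and 5 (Top2a, Ccna2, Bub1, Kif23 and Hmmr) at least 2 times. Of these 33 cells, 5 were many-member cells, with a median of 69 G2/M UMIs. Of 3 measured members of the immature class 0 were called for aGVHD over BMT (0.823% of all genes higher, 1.97% lower). In the mature class, of 9 measured inhibiting regulators, Cdkn2d was called lower and 2 higher: Btg1, an antiproliferative gene, and Cdkn1b were higher in BMT than in WT mature neutrophil-like cells, 2.34-fold (2.16 to 2.53) and 2.83-fold (1.75 to 4.90), where 7.15% of all genes were higher and 2.41% lower. In aGVHD both were lower than in BMT, 2.22-fold (2.15 to 2.29) and 2.41-fold (2.01 to 2.90), where 1.36% of all genes were higher and 5.41% lower.

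Many blood cells fitted no single class: 138 in WT, 195 in BMT and 1014 in aGVHD. G2/M-positive cells were 45.7% (37.2 to 54.3), 12.8% (8.47 to 18.3) and 30.6% (27.7 to 33.5) of them, and S-positive ones 31.2%, 15.4% and 23.9%. Car1, an early erythroid gene, was their leading gene in all 3 libraries. The next ones differed: Cd74, H2-Ab1, Gm26917 and H2-Eb1 in WT, Gm15915, Cdk6, Plac8 and Stmn1 in BMT, and Gm15915, Npm1, Fbl and Ncl in aGVHD. No lineage is read from Car1. For BMT over WT, 19 of 35 members were called lower, 18 of them G2/M members and the other Ccne1, beside 2.82% of all genes lower and 2.90% higher. For aGVHD over BMT, 0 of 35 were called, beside 0.244% of all genes higher and 1.65% lower. The 30.6% of aGVHD stands next to the 30.4% of its empty droplets, and there 20 of 23 G2/M members were above the empty droplets but 0 at least 2 times. Mature neutrophil-like cells of aGVHD were at 1.51%. Of the 1014 cells, 446 were many-member cells, with medians of 29.5 G2/M UMIs and 16596.5 UMIs in all. The other 568 had medians of 2 and 14459.5. The part of free RNA in the 30.6% was not tested. Cells of undecided lineage were G2/M-positive in 14.6%, 10.9% and 34.8%, and the intervals (11.6 to 18.1, 6.06 to 17.5 and 30.3 to 39.6) include the share of the empty droplets of each library.

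The activating regulators were cyclins, kinases, phosphatases and transcription factors that drive the cycle. In blood cells, 8 of 18 were called lower for BMT over WT, 10 were not called and 0 were higher, beside the same 4.83% of all genes lower. E2f2, an activating E2F factor, was at 134 CPM in WT and 20.5 CPM in BMT, 6.53-fold lower (5.68 to 7.53). Mybl2 and Foxm1, which act with the MuvB complex at CHR elements, were 3.56-fold (2.86 to 4.46) and 3.32-fold (2.48 to 4.50) lower. The rest were Cdk2, E2f1, E2f7, E2f8 and Cdc25b. Of the other G2/M genes 34 of 45 were called lower, and of the other S genes 16 of 34. Among 16 inhibiting regulators, Btg1 alone was called, at 462 CPM in WT and 2020 CPM in BMT, 4.38-fold higher (4.26 to 4.50). With 5.15% of all genes called higher, nothing is read from 1 call in 16. Neutrophil-like cells, the class with the largest share in BMT, had Btg1 at 5637 CPM in that library. For aGVHD over BMT, 0 of 34 other S genes, 0 of 45 other G2/M genes and 0 of 18 activating regulators were called. Of 16 inhibiting regulators 1 was called, Btg1, lower in aGVHD. Over all genes 0.577% were higher and 4.04% lower.

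The classes that held the G2/M-positive cells changed between libraries. There were 633 such cells in WT, 151 in BMT and 892 in aGVHD. Niche cells made up 8.69% of the WT ones (6.61 to 11.2), 10.6% of those in BMT (6.18 to 16.6) and 2.47% of those in aGVHD (1.55 to 3.71). Erythroid-like cells were 51.5%, 27.2% and 38.0%, and B lineage-like cells 9.79% and 19.9% in WT and BMT. Blood cells of no single class were 9.95%, 16.6% and 34.8%. These shares follow both how often a class was G2/M-positive and how many of its cells passed the sort.

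**Figure D4:**
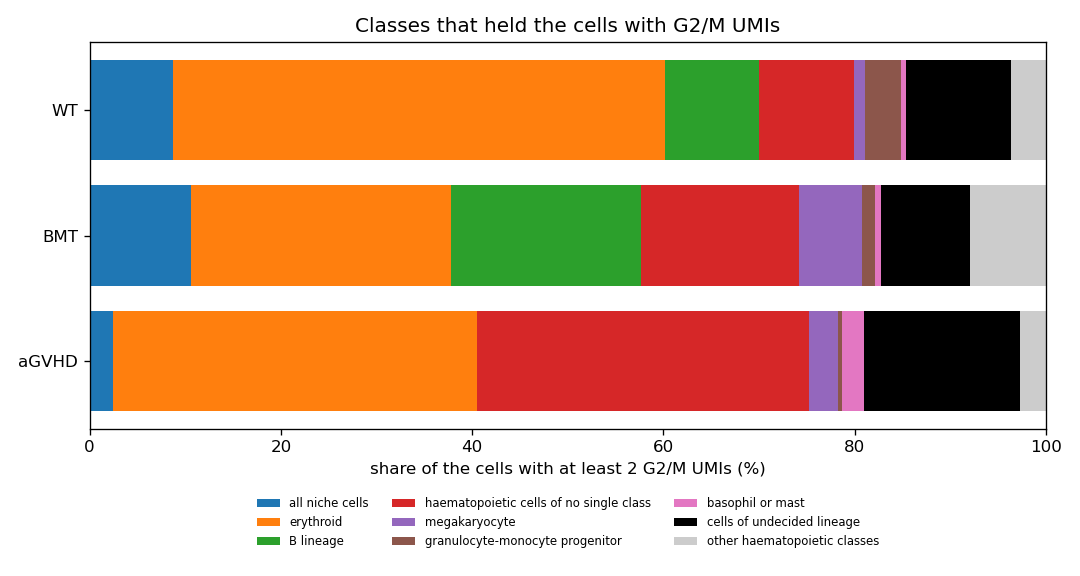
Share of all G2/M-positive cells held by each group of cells, in percent, for WT (633 cells), BMT (151) and aGVHD (892). Blood classes make up most of each bar, with the erythroid part at 51.5% in WT and 27.2% in BMT and cells of no single class at 34.8% in aGVHD.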

How the data were processed

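Single-cell libraries of sorted marrow cells, 1 per group, were deposited by the authors as raw UMI counts per gene and barcode, made with Cell Ranger 3.1.0 per the file headers. The submitters' processing notes also name Seurat and mm10. All 6794880 barcodes of each library were read. Totals were 86575425 UMIs in WT, 44219063 in BMT and 67439098 in aGVHD. Cells were filtered as described, and 407, 105 and 248 likely doublets, the cells with the highest Scrublet scores up to a number that grows with the cells recovered, were removed, where Scrublet's own threshold marked 191, 26 and 88.

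A cell entered the niche or blood lineage with at least 3 different markers of it above 2 times the empty droplets and at least 2 times as many as of the other, and a class by its highest marker score (minimum 0.5, margin 0.25, at least 3 of 8 markers). This scoring rule was set after the files were seen. Near the boundary (within 0.1) lay 97 of 1311 fibroblast-like, 18 of 439 erythroid-like and 2 of 451 endothelial-like WT cells. The early progenitor class had none of its markers among its leading WT genes, Myb among those of BMT, and Myb, Kit and Cd48 among those of aGVHD. It was not described or compared. Its cells count among blood cells and in the shares over all classes at WT make-up. The members, markers and gene lists were chosen with earlier results of these data known. Genes named were the members, and those of the other lists that a count covers. Shares have exact binomial intervals, CPM ratios exact conditional ones and ratios of shares log-normal ones, computed with scipy 1.17.1. PCR duplicates are removed by UMIs, and intervals cover counting error only. Scripts were tested on simulated data. Alternatives covered thinning, the UMI minimum, gate strictness, clusters in place of gates, single members left out, and, added after the data were seen, haemoglobin UMIs left out.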

Additional observations from a re-analysis of the deposited data

How the results depend on the processing

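No paired analysis was possible because each group had 1 library, and leaving out a replicate was not possible either. Of 144 ratios of shares recomputed under alternatives, 127 moved by less than their counting interval and 17 by more. Of 216 shares, 133 stayed within it and 83 moved, and of 15 member counts 11 stayed and 4 moved. With 1 UMI sufficing, the niche S ratio for BMT over WT was 1.11, the blood G2/M ratios 0.328 (BMT over WT) and 2.05 (aGVHD over BMT), and the blood S ratios 0.395 and 1.80. With 3 UMIs required, the blood S ratio for BMT over WT was 0.205 and the endothelial-like S ratio for aGVHD over BMT 0.323. Without thinning, the niche G2/M ratios were 1.38 and 0.510, the niche S ratio for aGVHD over BMT 0.630, the blood G2/M ratios 0.398 and 2.15, and the blood S ratio for BMT over WT 0.441. Without Pcna the endothelial-like S ratio for aGVHD over BMT was 0.363. With haemoglobin UMIs left out, chosen after seeing the data, the niche S ratios were 1.15 and 1.70 and the blood G2/M ratio for aGVHD over BMT 3.71. Haemoglobin was 0.685% of niche UMIs in WT, 0.0328% in BMT and 0.763% in aGVHD. The cells were thinned again for this run, and the part of the draw in these ratios was not tested. Members called higher in blood cells for aGVHD over BMT numbered 1 at 1.5-fold and 8 without the empty-droplet requirement, and in niche cells 3 without it. B lineage-like members called lower numbered 28 at 1.5-fold, 9 with at least 50 UMIs and 9 without haemoglobin UMIs. The cause was not tested. Depth limits the niche classes of under 150 cells, where 0 positive cells allow shares of 2% or more.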
